A study of Sus scrofa with 50 samples.

Results

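The liver was compared between ET-type and L-type Korean minipigs, with 5 animals of each type. The members are the 10 liver libraries of a series of 50, chosen by the tissue and type that their labels give. Each animal gave 1 liver library: S0235, S0242, S0276, S0309 with S0326 for the ET type, S0349, S0355, S0377, S0384 with S0385 for the L type. Heart, kidney, lung and spleen of the same animals make up the other 40 libraries. Total RNA was taken up in TRIzol and sequenced as stranded mRNA libraries, and the labels used here give no treatment, sex, age, genotype or feeding state for either type. Values are TPM, a length-normalised share of each library's transcripts, summed over the assembled transcripts whose best protein match was the same Swiss-Prot entry. Genes are written with that entry's short name, as F16P1 for fructose bisphosphatase.

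The liver switches between a fed and a fasted programme. After a meal it takes up glucose through glucokinase and turns the surplus into fat, under insulin; between meals it releases glucose made from lactate and amino acids, burns fatty acids and turns amino nitrogen into urea. The same hepatocytes oxidise drugs with cytochrome P450 enzymes, couple them to soluble groups, and secrete most plasma proteins. Many of these tasks are split between the periportal cells, which meet incoming blood first, and the pericentral cells around the central vein.

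The hepatocyte markers stood high in every library and apart from the other tissues. ALBU (albumin) lay between 55175 and 174600 TPM, and FIBB, APOH and APOC3 had means of 13514 ± 6866, 7738 ± 1521 and 5601 ± 1558 TPM in ET-type livers against 17206 ± 5061, 7162 ± 575 and 6628 ± 1208 TPM in L-type livers (SD, n = 5 each). None of the 4 passed between the types, and ALBU differed by -0.11 ± 0.36, adjusted p = 0.982. Across the other 4 tissues ALBU averaged 4.82 TPM. The libraries were not alike. ET-type S0326 carried 26.4% of its TPM in mitochondrial genes against 6.58% to 10.3% elsewhere, only 5.52% in albumin, and the lowest mean correlation with the other livers (0.806). ET-type S0309 held the fewest genes at 1 TPM or more (17677), and was the ET-type animal nearest the L-type side in 44.4% of all entries, against 10.3% to 20.2% for the other ET-type animals. L-type S0355 was the L-type animal nearest the ET-type side in 27.5%, against 12.9% to 23.1% for the others. No pair of libraries was identical. In bulk tissue, fewer cells of a type and less RNA per cell cannot be told apart.

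Across 21445 genes tested by limma, 2 passed an adjusted p below 0.05, which is 0.00933%, and both had lower levels in ET-type livers. They are transcripts without a protein match that came from the assembly of L-type liver. The first stood at 0.290 ± 0.123 TPM in ET-type and 6.35 ± 0.677 TPM in L-type animals (-2.51 ± 0.19 on the log2 scale, adjusted p = 0.000417). The second stood at 0.468 ± 0.490 and 12.8 ± 2.55 TPM (-3.27 ± 0.26, adjusted p = 0.000417). At an unadjusted p below 0.05 there were 1412 genes (6.58%), 513 higher (2.39%) and 899 lower (4.19%) in ET-type. A single fit over the whole series used the animal as replicate block and shared 1 estimate of spread over the 5 tissues. It called 322 of 32902 genes, 132 higher and 190 lower. No gene with a protein name passed in the liver alone, so the adjusted p of that fit is given below as a second value for the 54 of 124 genes chosen to be named that passed in it; the other 70 did not. The named genes were largely picked by small p in these same livers, so this second value is not separate support. That fit rests on a spread pooled over tissues. In 45 of the 54 the liver's own SD lay above the pooled one, so those p-values understate the spread between livers. The exceptions are ELOV6, PPIF, ICAM2, IF2A, RN152, MORC4, DAPK1, P2RX4 and COJA1.

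Another view of the named genes is whether the 5 ET-type values and the 5 L-type values overlap at all. It is looser than the adjusted p, since 147 of 11088 entries (1.33%) did not overlap. With 5 animals a side some entries separate fully by chance, and that number was not estimated. Of 11088 entries tested, 50 had every ET-type liver above every L-type liver (0.451%) and 97 had every ET-type liver below (0.875%). Scaling the libraries by median ratios turned this split to 89 above and 60 below. Without S0326 the counts over the same entries were 97 (0.875%) and 172 (1.55%), and with S0309 left out in its place 519 entries lay wholly below. Such counts rise by chance alone when fewer animals are compared, and that part was not estimated. Means were lower in ET-type for 62% of entries and higher for 38%, and the median difference was -0.09. With median-ratio scaling 5895 of 11088 were lower, so this share too depends on the scaling. A list with about this share of lower means is not read as shifted. At an unadjusted p below 0.05, 262 entries were higher and 466 lower, but 373 and 311 with median-ratio scaling and 354 each with quantile normalisation, so the lean of single calls to the lower side depends on the scaling. Without S0309 there were 1220 lower entries of 11025. Leaving out 1 animal also moved many counts within the short lists below, and shifts of over 1.5 times in the counts and medians of lists are given with the animal for the main cases. For single genes, adjusted p-values with 1 animal left out are printed only where they came below 0.05. The animal left out there was mostly the one nearest the other type, so these values are no support for a difference. Below, a difference is the ET-type mean less the L-type mean of log2(TPM + 1), with its SE, animals are listed in the order S0235, S0242, S0276, S0309, S0326 and S0349, S0355, S0377, S0384, S0385, and folds are ratios of mean TPM.

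Genes for making glucose stood lower in the ET-type livers. Of 14 measured genes of gluconeogenesis, 13 had lower means, with a median of -0.49 against -0.09 over all entries. At an unadjusted p below 0.05, 4 were lower and 0 higher, where 4.2% and 2.36% of all entries were, and 0 passed after adjustment. Their mean log2 level ran from 6.67 to 7.39 in ET-type and from 7.54 to 8.02 in L-type livers, so the types did not overlap on that measure. Their summed TPM did overlap, at 2808 to 4949 in ET-type and 4163 to 6704 in L-type livers. Without S0326, 12 of the 14 had lower means and 3 had an unadjusted p below 0.05.

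LDHB, the lactate dehydrogenase chain that favours turning lactate into pyruvate, stood at 8.87, 55.1, 18.5, 29.7 and 23.7 TPM in ET-type and 659, 117, 275, 101 and 135 TPM in L-type livers. All 5 ET-type livers lay below all L-type livers, and the means were 9.48-fold apart (-3.03 ± 0.56, adjusted p = 0.149; with the animal as block 1.53e-06). F16P1, which takes the phosphate off fructose bisphosphate on the way to glucose, stood at 514, 489, 665, 654 and 281 TPM in ET-type and 1542, 1033, 1036, 1111 and 903 TPM in L-type livers. Again no ET-type liver reached the lowest L-type liver (-1.15 ± 0.26, adjusted p = 0.335), and this gene did not pass with the block either (0.818). G6PC1, the phosphatase that frees glucose from the cell, stood at 63.9, 864, 332, 209 and 189 TPM in ET-type and 459.6, 533, 571, 1357 and 1071 TPM in L-type livers. ET-type S0242 lay inside the L-type range and the other 4 ET-type livers lay below it (-1.62 ± 0.58, adjusted p = 0.647). GPDA, which links glycerol to this route, spanned 52.3 to 100.3 TPM in ET-type and 65.8 to 197 TPM in L-type livers (-0.76 ± 0.31, adjusted p = 0.718). PCKGC, the cytosolic carboxykinase often read as a fasting gene, had no such split, with 188 to 1638 TPM in ET-type and 399.8 to 1688 TPM in L-type livers (-0.56 ± 0.60, adjusted p = 0.943).

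Glucokinase stood the other way. HXK4, the hexokinase through which the fed liver traps glucose, stood at 132, 62.1, 208, 20.6 and 95.4 TPM in ET-type and 2.83, 84.4, 6.22, 34.2 and 4.46 TPM in L-type livers. L-type S0349, S0377 and S0385 were under 10 TPM, while L-type S0355 and S0384 lay inside the ET-type range. ET-type S0309 was below both of them and ET-type S0242 below S0355 (2.59 ± 0.87, adjusted p = 0.639; with the block 0.00271). Of 24 genes of glycolysis, fructose and glycogen 16 had lower means (median -0.13, 0.01 without S0326 and -0.22 without S0309), with 1 higher and 3 lower at an unadjusted p below 0.05. That share of lower means was near the 62% of all entries, and 13 were lower with median-ratio scaling. UGPA, which makes the sugar donor for glycogen, spanned 25.1 to 150.4 TPM in ET-type and 106 to 173 TPM in L-type livers (-1.07 ± 0.38, adjusted p = 0.647).

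Among 28 genes of fasting and insulin action 19 had lower means (median -0.19), where 62% of all entries did. At an unadjusted p below 0.05, 4 were lower and 1 was higher. The 4 became 7 without S0309 and 2 without S0326, S0377 or S0385, and the median ran from -0.33 without S0355 to -0.10 without S0385. PDK4, the kinase that shuts pyruvate dehydrogenase in fasting, stood at 2.94, 26.7, 50.6, 6.29 and 5.75 TPM in ET-type and 65.3, 23.1, 136, 78.7 and 107 TPM in L-type livers. L-type S0355 lay inside the ET-type range and the other 4 L-type livers above it (-2.55 ± 0.70, adjusted p = 0.459; with the block 0.0151). TRIB3, a pseudokinase that restrains insulin signalling, spanned 0.385 to 2.09 TPM in ET-type and 1.74 to 10.3 TPM in L-type livers (-1.34 ± 0.43, adjusted p = 0.639; with the block 0.0464). KLF15, a transcription factor of fasting and amino acid breakdown, spanned 51.7 to 198 TPM in ET-type and 109.9 to 346 TPM in L-type livers (-0.93 ± 0.37, adjusted p = 0.697). PDK2, another kinase of the same enzyme complex, had the opposite sign (92.6 to 172 TPM in ET-type and 50.3 to 108 TPM in L-type livers; 0.78 ± 0.26, adjusted p = 0.639), and the fasting-induced secreted protein ANGL4 overlapped widely (0.38 ± 0.29, adjusted p = 0.907).

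**Figure D1:**
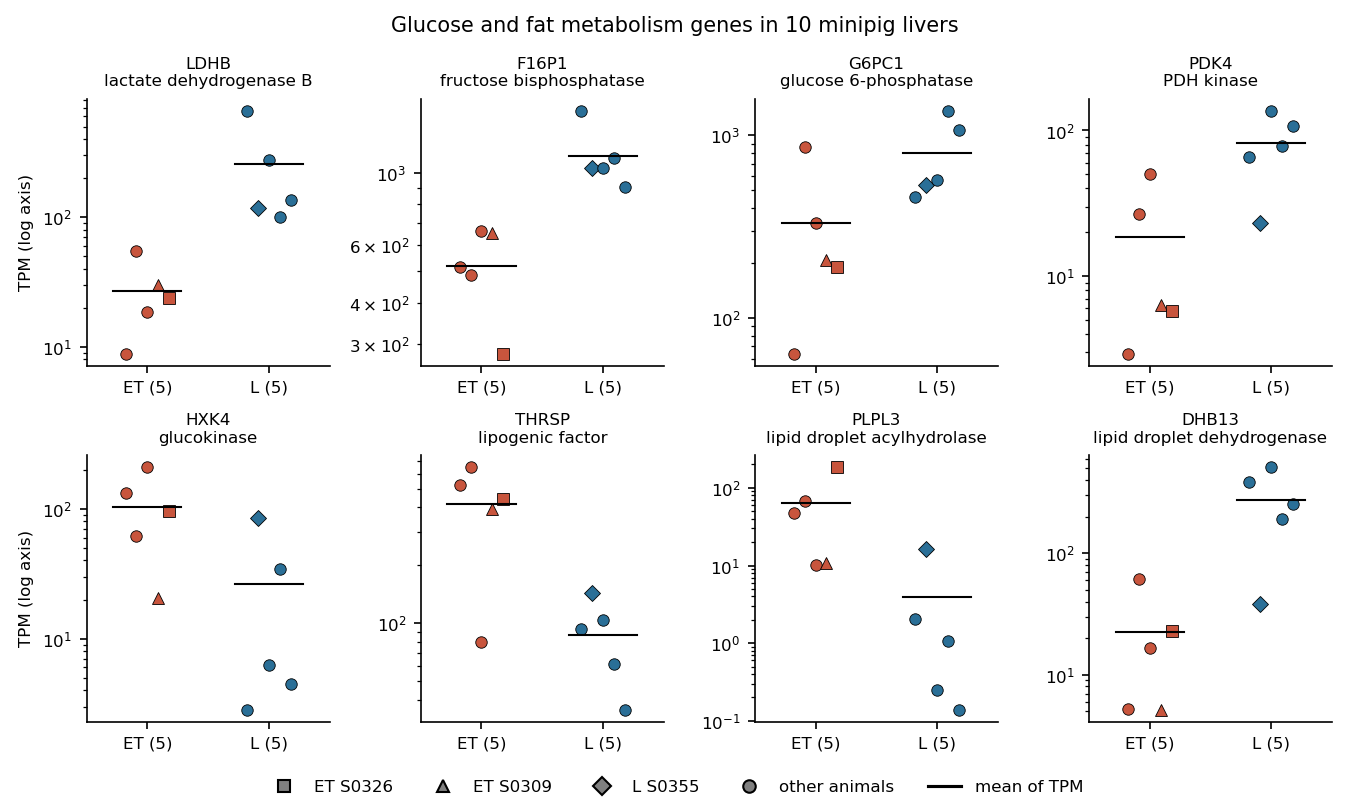
TPM on log axes of 8 genes of glucose and fat metabolism in the 5 ET-type and 5 L-type livers; points are animals, lines are means, and squares, triangles and diamonds mark ET-type S0326, ET-type S0309 and L-type S0355. LDHB and F16P1 separate the types completely, and in HXK4, PLPL3, PDK4 and DHB13 L-type S0355 lies nearest to or among the ET-type animals.

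Fat synthesis did not move as 1 block. Of 23 measured genes 12 had higher and 11 lower means (median 0.24, but -0.13 without S0326, -0.18 without S0355 and 0.40 without S0385), with 5 higher, or 3 without S0326, and 2 lower at an unadjusted p below 0.05. PLPL3, a lipid droplet acylhydrolase that insulin induces, stood at 47.8, 67, 10.3, 10.8 and 184 TPM in ET-type and 2.06, 16.2, 0.25, 1.06 and 0.139 TPM in L-type livers. The means were 16.3-fold apart, and only L-type S0355 reached the ET-type range (3.80 ± 0.89, adjusted p = 0.335; with the block 0.00352). THRSP, a nuclear factor that tracks fat synthesis in liver, stood at 526, 647, 80.3, 391 and 440.2 TPM in ET-type and 93.1, 144, 103, 61.2 and 35.5 TPM in L-type livers. ET-type S0276 lay among the L-type animals and the other 4 ET-type livers above all of them (2.11 ± 0.55, adjusted p = 0.409; with the block 0.000992). ELOV6, which lengthens the fatty acids made by this pathway, stood at 27.5, 47.7, 63.4, 79.7 and 30.0 TPM in ET-type and 126, 116, 113, 159.9 and 104 TPM in L-type livers. It did not overlap in the opposite direction, lower in every ET-type liver (-1.40 ± 0.29, adjusted p = 0.239; with the block 0.0161). 6PGD, which supplies NADPH, spanned 55.4 to 93.6 TPM in ET-type and 34 to 56.4 TPM in L-type livers (0.76 ± 0.21, adjusted p = 0.456).

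Cholesterol synthesis had higher ET-type means in 21 of 21 genes (median 0.57), 9 of them at an unadjusted p below 0.05 and 0 passing, and in 16 of 21 without S0309. This direction was known from earlier results of these data. In 0 of the 21 genes did the types separate fully. Their mean log2 level ran from 6.65 to 7.81 in ET-type and from 6.37 to 7.30 in L-type livers. ET-type S0276 lay inside the L-type range and the other ET-type livers above it. FDFT, squalene synthase, spanned 150.3 to 507 TPM in ET-type and 83.9 to 205 TPM in L-type livers (1.15 ± 0.37, adjusted p = 0.639). FPPS, which makes farnesyl pyrophosphate, spanned 207 to 776 TPM in ET-type and 94.5 to 425 TPM in L-type livers (1.31 ± 0.44, adjusted p = 0.639; with the block 0.0215). Of 18 genes of sterol regulation and export 11 had higher means. ABCG8, a canalicular pump that sends sterols into bile, stood at 23.4, 11.2, 20.8, 14.8 and 15.6 TPM in ET-type and 38.8, 26.1, 39.9, 29.7 and 54.9 TPM in L-type livers. All ET-type livers lay below all L-type livers (-1.10 ± 0.26, adjusted p = 0.335; with the block 2.5e-05), whereas ABCA1, which loads cholesterol onto apolipoprotein A-I, spanned 9.06 to 39.5 TPM in ET-type and 4.04 to 12.6 TPM in L-type livers with a higher ET-type mean (1.03 ± 0.42, adjusted p = 0.712).

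Of 26 genes of fatty acid breakdown 20 had lower ET-type means (median -0.26), 3 at an unadjusted p below 0.05. Without S0326 the split was 11 higher and 15 lower, which is no larger a share than over all entries, with a median of -0.12, and without L-type S0349 the median was -0.13. ECHA, the alpha chain of the trifunctional enzyme of long-chain oxidation, stood at 98, 88.8, 94.2, 85.8 and 45.8 TPM in ET-type and 286, 201, 138, 149 and 118 TPM in L-type livers. The types did not overlap, with S0326 the lowest of all (-1.08 ± 0.29, adjusted p = 0.435; with the block 0.0251). THIM, the last thiolase of the mitochondrial cycle, stood at 2.46, 66.4, 4.65, 4.41 and 3.08 TPM in ET-type and 167, 6.76, 152, 49 and 79.2 TPM in L-type livers. ET-type S0242 lay above L-type S0355 and S0384, and the other 4 ET-type livers below all L-type livers (-2.95 ± 0.95, adjusted p = 0.639; with the block 0.0041). ACADV, the very long-chain dehydrogenase, spanned 41.1 to 65.9 TPM in ET-type and 46.5 to 228 TPM in L-type livers (-0.97 ± 0.37, adjusted p = 0.689).

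Lipid droplet and fatty acid uptake genes had lower means in 21 of 29 (median -0.17), with 2 higher and 4 lower at an unadjusted p below 0.05. That shift rests on single livers, since the median was -0.04 without S0326, above the -0.07 of all entries, and 16 were lower with a median of -0.10 without S0355. DHB13, a dehydrogenase that sits on hepatocyte lipid droplets, stood at 5.24, 61.6, 16.6, 5.14 and 23.1 TPM in ET-type and 385.02, 38.5, 511, 192 and 255 TPM in L-type livers. The means were 12.4-fold apart, and only ET-type S0242 and L-type S0355 crossed (-3.71 ± 0.77, adjusted p = 0.229; with the block 4.08e-07). ACSL4, a ligase that activates arachidonic acid, stood at 16.8, 107, 18.4, 37.9 and 37.7 TPM in ET-type and 12.4, 11.7, 11.3, 12.3 and 11.3 TPM in L-type livers. It was higher in every ET-type liver and nearly constant in L-type livers (1.47 ± 0.42, adjusted p = 0.499; with the block 0.0102). ABHD5, the co-activator of droplet triglyceride lipase, spanned 6.54 to 38.4 TPM in ET-type and 23.6 to 149 TPM in L-type livers (-1.73 ± 0.54, adjusted p = 0.612; with the block 0.00558).

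Disposal of amino acids and their nitrogen also had lower ET-type means. Of 11 genes of the urea cycle and ammonia handling 10 were lower (median -0.70), and of 41 genes of amino acid breakdown 37 (median -0.31). At an unadjusted p below 0.05 these were 2 and 7 genes, with 0 in the other direction, and 0 passed. Without S0326 the lower means numbered 9 and 33, and at an unadjusted p below 0.05 there were 1 and 4 lower with 1 higher in each list. Without L-type S0355 the lower genes at that level were 5 and 13, and without L-type S0385 they were 1 and 2, with medians of -0.44 and -0.24. Amino acid breakdown also came to 4 without S0276 and 3 without S0377, and the urea cycle to 1 without S0235 or S0276. ARGI1, the arginase that releases urea, stood at 378, 785, 308, 386 and 386 TPM in ET-type and 1104, 476, 1346, 926 and 2559 TPM in L-type livers. L-type S0355 lay inside the ET-type range, and so did ET-type S0242 in that of the L-type (-1.39 ± 0.41, adjusted p = 0.523). ORNT1, the mitochondrial ornithine carrier, spanned 67.7 to 164 TPM in ET-type and 88.2 to 234 TPM in L-type livers (-0.77 ± 0.31, adjusted p = 0.697). The cycle's entry enzyme CPSM (-0.70 ± 0.64, adjusted p = 0.929) and its most abundant member ASSY (-0.90 ± 0.51, adjusted p = 0.839) overlapped broadly, and in CPSM the lowest of all 10 livers was L-type S0355.

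In tryptophan breakdown ACMSD, which steers carbon away from NAD synthesis, stood at 0.452, 5.04, 0.36, 1.57 and 0.915 TPM in ET-type and 8.18, 0.721, 64.9, 21.1 and 109 TPM in L-type livers. The L-type animals were widely spread, with S0355 as low as the ET-type livers (-3.08 ± 0.96, adjusted p = 0.612; with the block 0.0235). ALAT2, the mitochondrial alanine aminotransferase, stood at 0.197, 0.32, 0.757, 2.41 and 0.267 TPM in ET-type and 8.92, 0.192, 216, 6.48 and 438 TPM in L-type livers. Its L-type mean rests on S0377 and S0385 (-3.88 ± 1.36, adjusted p = 0.646; with the block 0.016). SDHL, the serine dehydratase of fasting and protein feeding, spanned 38.2 to 134 TPM in ET-type and 77.8 to 635 TPM in L-type livers (-1.46 ± 0.55, adjusted p = 0.689; with the block 0.00413), and AL7A1 of lysine breakdown 45.8 to 194 TPM in ET-type and 89.9 to 293 TPM in L-type livers (-1.04 ± 0.41, adjusted p = 0.689).

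Cytochrome P450 genes split by subfamily. Of 34 measured entries 24 had higher ET-type means (median 0.23), 8 higher and 2 lower at an unadjusted p below 0.05, and 4 did not overlap, all higher. Without S0309 there were 4 lower, and the median was 0.38 without S0384 and 0.36 without S0326 or S0385. The 2C and 2B entries name the best match of pig transcripts among close relatives, so which pig gene each one is remains uncertain. CP2B4, the rabbit 2B match at 80.4% identity, stood at 322, 325, 437, 307 and 307 TPM in ET-type and 43.4, 138, 122.8, 251 and 70.8 TPM in L-type livers. The lowest ET-type liver lay above the highest L-type liver, S0384 (1.66 ± 0.39, adjusted p = 0.335; with the block 0.00135). CP2CK, a 2C entry at 80.9% identity, stood at 41.9, 34.5, 76.4, 15.4 and 59.3 TPM in ET-type and 4.56, 14.1, 6.86, 12.1 and 10.1 TPM in L-type livers. The lowest ET-type liver, S0309, came just above the highest L-type liver, S0355 (2.05 ± 0.41, adjusted p = 0.209; with the block 0.00293).

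The other 2C entries had larger levels. CP242, at 59% identity, stood at 678, 415, 399, 312 and 469 TPM in ET-type and 97.3, 175, 151, 95.7 and 102 TPM in L-type livers. The gap between the types was wide (1.86 ± 0.26, adjusted p = 0.0692), and the adjusted p became 0.0335 without ET-type S0309 and 0.026 without L-type S0355. CP2CQ, at 81.2% identity, stood at 1040.4, 515, 618, 412 and 728 TPM in ET-type and 105, 217, 195, 49.9 and 140.5 TPM in L-type livers. It too did not overlap (2.32 ± 0.39, adjusted p = 0.129). CP2CI stood at 7199, 3201, 1732, 4991 and 3334 TPM in ET-type and 427, 2041, 489.9, 225 and 446 TPM in L-type livers, the highest of the 2C entries here. L-type S0355 lay above ET-type S0276 and the remaining 4 L-type livers below all ET-type livers (2.78 ± 0.54, adjusted p = 0.198; 3.27, adjusted p = 0.0251, without S0355). CP3AT, the abundant 3A enzyme of the pig, overlapped (2156 to 8040.4 TPM in ET-type and 2336 to 4593 TPM in L-type livers; 0.45 ± 0.39, adjusted p = 0.924).

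In the opposite direction stood the pericentral 2E and 1A enzymes. CP2E1, which oxidises ethanol and small solvents, stood at 0.441, 99.1, 15.7, 0.46 and 8.66 TPM in ET-type and 1987, 15.9, 2439, 175 and 1500.4 TPM in L-type livers. The means were 49.2-fold apart, but L-type S0355 matched ET-type S0276 and ET-type S0242 came close to L-type S0384 (-5.85 ± 1.50, adjusted p = 0.397; with the block 3.41e-06). CP1A2, which oxidises caffeine and aromatic amines, stood at 3.1, 67.3, 34.7, 2.91 and 11.6 TPM in ET-type and 209.5, 8.31, 1463, 131 and 1495 TPM in L-type livers. The order of animals was much the same, with L-type S0377 and S0385 highest and S0355 among the ET-type livers (-4.03 ± 1.33, adjusted p = 0.639; with the block 0.0025). AHR, the receptor that induces 1A enzymes, had a higher ET-type mean (23 to 91.2 TPM in ET-type and 9.14 to 31.6 TPM in L-type livers; 1.02 ± 0.44, adjusted p = 0.73).

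**Figure D2:**
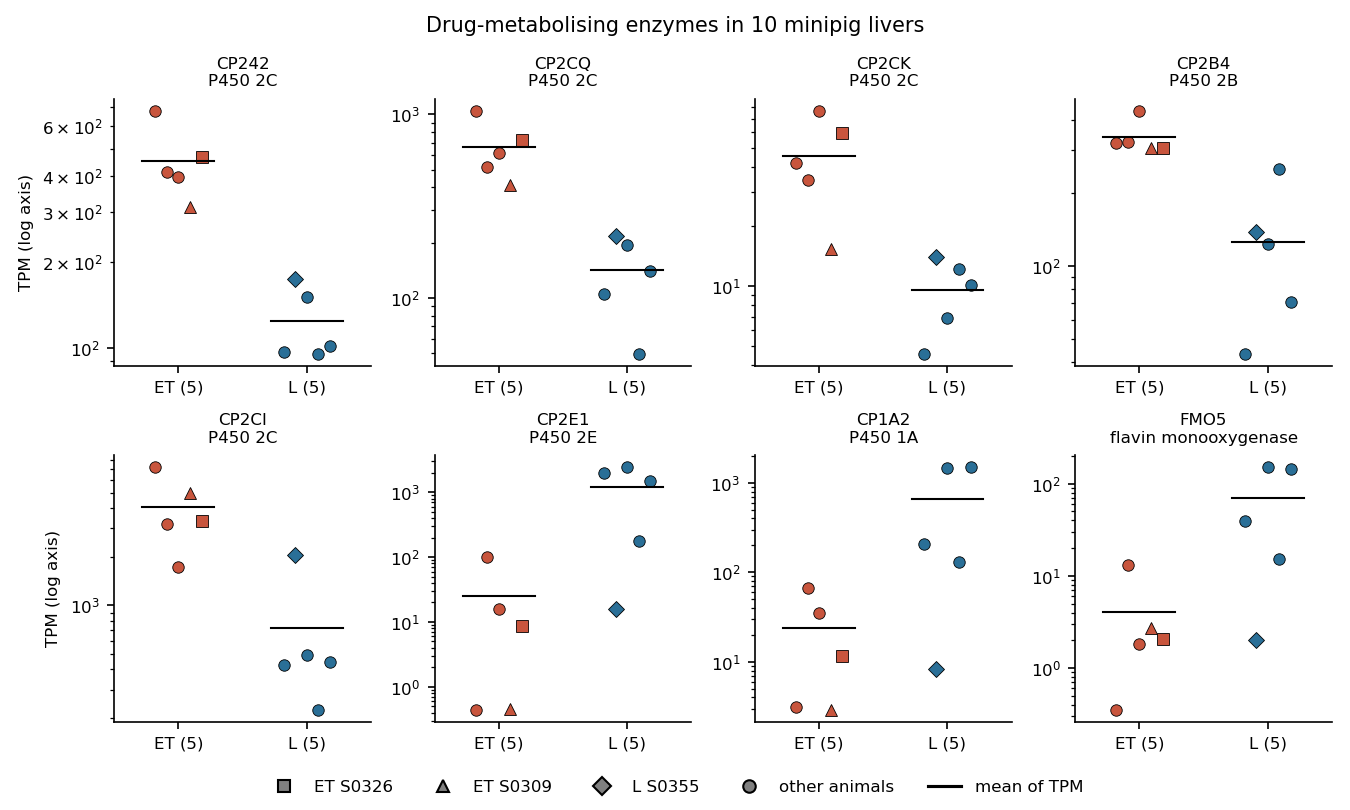
TPM on log axes of 8 drug-metabolising enzymes in the 5 ET-type and 5 L-type livers, with animals as points, means as lines and the same symbols for ET-type S0326, ET-type S0309 and L-type S0355. CP242, CP2CQ, CP2CK and CP2B4 lie higher in every ET-type liver, while CP2E1, CP1A2 and FMO5 span orders of magnitude within each type and have lower ET-type means.

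Among 30 other oxidising enzymes and their partners, 13 had higher and 17 lower means, with 1 and 4 at an unadjusted p below 0.05, or 4 higher without S0355 and 3 without S0309. CYB5, the electron carrier cytochrome b5, stood at 634, 647, 653, 865 and 344 TPM in ET-type and 1476, 985, 1038, 999 and 1054 TPM in L-type livers. It was lower in every ET-type liver (-0.86 ± 0.25, adjusted p = 0.519), whereas NB5R3, the reductase that feeds it, spanned 56.2 to 260.8 TPM in ET-type and 12.9 to 70.8 TPM in L-type livers with a higher ET-type mean (1.78 ± 0.51, adjusted p = 0.502). FMO5, a flavin monooxygenase, spanned 0.352 to 13.3 TPM in ET-type and 2.03 to 151 TPM in L-type livers (-3.23 ± 1.01, adjusted p = 0.612; with the block 0.00203). PON3, a lactonase carried on high-density lipoprotein, spanned 3.68 to 12.5 TPM in ET-type and 6.27 to 48.2 TPM in L-type livers (-1.56 ± 0.49, adjusted p = 0.623; with the block 0.00671). The abundant FMO1 (0.54 ± 0.34, adjusted p = 0.877) and liver carboxylesterase EST1 (0.50 ± 0.29, adjusted p = 0.846) overlapped.

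Conjugating enzymes had lower means in 29 of 39 (median -0.21), with 3 higher and 7 lower at an unadjusted p below 0.05. Those numbers were 6 and 10 without S0355, 5 and 6 without S0326, and 3 and 3 without S0276; without S0235, S0377 or S0385 4 were lower. The median was -0.08 without S0326 and -0.11 without S0349. NNMT, which methylates nicotinamide, stood at 25.8, 23.4, 33.3, 80.4 and 88.6 TPM in ET-type and 73.2, 395, 258, 71.8 and 760.0 TPM in L-type livers. The groups overlapped only through ET-type S0309 and S0326 (-2.27 ± 0.67, adjusted p = 0.523; with the block 0.000123). ST2A1, the sulfotransferase of steroids and bile acids, stood at 191, 333, 431, 282 and 328 TPM in ET-type and 710.4, 374, 1223, 718 and 2536 TPM in L-type livers, and only L-type S0355 lay inside the ET-type range (-1.57 ± 0.44, adjusted p = 0.481). GSTT1, a glutathione transferase, spanned 1.12 to 8.91 TPM in ET-type and 5.8 to 31.8 TPM in L-type livers (-1.64 ± 0.47, adjusted p = 0.502; with the block 0.0249). Higher ET-type means were found in UD2A1, a glucuronosyltransferase (5.63 to 17.8 TPM in ET-type and 2.42 to 6.08 TPM in L-type livers; 1.0 ± 0.35, adjusted p = 0.646; with the block 0.000503), and in GLYAT, which couples benzoate to glycine (0.75 ± 0.32, adjusted p = 0.725).

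Transporters of the hepatocyte had lower means in 17 of 26 (median -0.16), with 1 higher and 4 lower at an unadjusted p below 0.05. Their share of lower means was close to the 62% of all entries. Without S0235 or S0377 2 were lower, and the median ran from -0.24 without S0309 to -0.06 without S0349. CTR2, an arginine carrier, spanned 9.96 to 41.9 TPM in ET-type and 32.8 to 136 TPM in L-type livers (-1.56 ± 0.46, adjusted p = 0.551; with the block 0.0282). S38A2, which takes up neutral amino acids, spanned 25.7 to 78 TPM in ET-type and 75.8 to 91.6 TPM in L-type livers, with S0309 the only ET-type liver inside the L-type range (-0.95 ± 0.28, adjusted p = 0.528). S22A1, the organic cation transporter that carries metformin, spanned 72.4 to 195 TPM in ET-type and 76.9 to 658 TPM in L-type livers (-1.37 ± 0.56, adjusted p = 0.712), and S22A7, an organic anion transporter, had a higher ET-type mean (0.95 ± 0.40, adjusted p = 0.721). Bile acid synthesis had 7 higher and 7 lower means, or 4 and 10 without S0309. Its 12-alpha hydroxylase CP8B1 lay under 1 TPM in every ET-type liver, where S0276 was listed at 0, and at 14.4, 0.644, 2, 1.49 and 0.827 TPM in L-type livers (-1.41 ± 0.53, adjusted p = 0.685). AMACR, the racemase of bile acid side chains, spanned 48 to 157 TPM in ET-type and 34.5 to 73.1 TPM in L-type livers (0.89 ± 0.35, adjusted p = 0.689).

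Among secreted proteins the lists lay on both sides of the general median, and single genes lay far from it. Clotting factors had lower means in 22 of 26 (median -0.17), or 17 of 26 without S0326 (median -0.11), and 0 at an unadjusted p below 0.05, or 2 without S0309 (median -0.27). Protease inhibitors had lower means in 19 of 21 (median -0.29). Without S0326 14 of the 21 were lower with a median of -0.07, which is that of all entries without this liver. SPA11, a liver serpin, stood at 30.8, 30.6, 32.7, 48.8 and 31.2 TPM in ET-type and 105, 76.4, 126, 73.9 and 86 TPM in L-type livers. The types were apart by a gap from 48.8 to 73.9 TPM (-1.39 ± 0.21, adjusted p = 0.106; with the block 1.15e-10; 0.0335 in liver alone without ET-type S0309). CPN2, the large subunit of the plasma carboxypeptidase that trims kinins and anaphylatoxins, stood at 55.2, 57.1, 52.2, 62.9 and 63.7 TPM in ET-type and 111, 128, 134, 88.5 and 122 TPM in L-type livers. The spread within each type was small and the types were apart (-0.98 ± 0.17, adjusted p = 0.129; with the block 8.5e-08). KAIN, the serpin kallistatin, overlapped (-0.80 ± 0.36, adjusted p = 0.753).

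Among 20 apolipoproteins and related lipid carriers 14 had lower means (median -0.23), with 1 higher and 2 lower at an unadjusted p below 0.05, and a median of -0.12 without S0309. APOA5, the apolipoprotein that helps lipoprotein lipase clear triglyceride, stood at 78.8, 53.4, 154, 54.8 and 19.4 TPM in ET-type and 577, 455, 402, 329.7 and 129 TPM in L-type livers. Only L-type S0385 lay inside the ET-type range (-2.51 ± 0.52, adjusted p = 0.234; with the block 3.81e-07). ANGL8, a meal-induced inhibitor of that lipase, stood at 63.3, 76.4, 65.6, 6.8 and 112 TPM in ET-type and 4.48, 19.7, 4.57, 6.65 and 4.58 TPM in L-type livers. ET-type S0309 lay with the L-type livers and the other 4 ET-type livers lay above all of them (2.68 ± 0.66, adjusted p = 0.378; with the block 1.7e-06). Without S0309 the ANGL8 difference in liver alone was 3.35 with adjusted p = 0.0335. APOA4, which varies with fat absorption and fasting, ranged over 14.1 to 508 TPM in ET-type and 54.8 to 2475 TPM in L-type livers, and L-type S0355 and S0384 stood above the rest (-2.91 ± 1.18, adjusted p = 0.709).

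Of 25 carrier and hormone proteins of plasma 12 had higher and 13 lower means (median -0.01), 4 and 2 of them at an unadjusted p below 0.05. Without S0326 17 were higher and 8 lower. HRG, the histidine-rich glycoprotein, stood at 2472, 2974, 1252, 2186 and 1466 TPM in ET-type and 929, 1653, 799, 962 and 481 TPM in L-type livers. Only L-type S0355 lay inside the ET-type range (1.14 ± 0.34, adjusted p = 0.555). THBG, which carries thyroid hormone, spanned 62 to 162 TPM in ET-type and 14 to 89.2 TPM in L-type livers (1.18 ± 0.43, adjusted p = 0.653; with the block 0.00246), and AFAM, a vitamin E carrier, 425 to 1378 TPM in ET-type and 338 to 611 TPM in L-type livers (0.88 ± 0.34, adjusted p = 0.689; with the block 0.0296). TTHY, another thyroid hormone carrier, also had a higher ET-type mean (0.45 ± 0.24, adjusted p = 0.805). TETN, the plasminogen-binding tetranectin, spanned 26.3 to 176 TPM in ET-type and 68.9 to 298 TPM in L-type livers with a lower one (-1.65 ± 0.54, adjusted p = 0.639).

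Complement genes had lower ET-type means in 26 of 33 (median -0.45), 6 at an unadjusted p below 0.05 and 0 the other way. Without S0326 these were 27 and 3. Without S0309 they were 26 and 17, in a setting in which 1220 of 11025 entries were lower at that level. With median-ratio scaling, and without S0235, S0349 or S0377, 2 complement genes were lower at that level, and 3 without S0242. CO2, the protease of the classical convertase, stood at 116, 134, 133, 288 and 76.2 TPM in ET-type and 216, 248, 332, 264 and 234 TPM in L-type livers. ET-type S0309 lay inside the L-type range and the other 4 ET-type livers below it (-0.91 ± 0.31, adjusted p = 0.639). FCN2, a lectin that starts the cascade, was likewise high in S0309 (6.81, 2.02, 4.21, 60.4 and 2.97 TPM in ET-type livers; -2.11 ± 0.76, adjusted p = 0.647). C1R (-0.49 ± 0.21, adjusted p = 0.74) and C1S (-0.78 ± 0.34, adjusted p = 0.74), the proteases of the first component, had lower means, and the abundant CO3 overlapped throughout (-0.11 ± 0.24, adjusted p = 0.976). The C1q chains C1QA, C1QB and C1QC, which macrophages make, were highest of all 10 livers in ET-type S0309, at 173, 238 and 261.5 TPM.

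Acute phase genes had lower means in 17 of 22 (median -0.20, 0.00 without S0326, -0.10 without S0355 and -0.33 without S0309), 3 at an unadjusted p below 0.05, or 0 without S0377. With median-ratio scaling 13 of the 22 were lower, beside 5895 of 11088 entries. HPT, haptoglobin, stood at 4433, 5302, 5337, 5033 and 6327 TPM in ET-type and 5659, 10357, 13087, 6358 and 8805 TPM in L-type livers. L-type S0349 was the only L-type liver inside the ET-type range, and without ET-type S0326 the types did not overlap (-0.69 ± 0.27, adjusted p = 0.689). CD14, the endotoxin co-receptor, spanned 174 to 309.2 TPM in ET-type and 227 to 362 TPM in L-type livers (-0.50 ± 0.22, adjusted p = 0.747), and SOCS3, which damps cytokine signalling, 1.23 to 2.49 TPM in ET-type and 1.87 to 16.4 TPM in L-type livers (-1.21 ± 0.45, adjusted p = 0.662). SOCS2, a brake on growth hormone signalling, stood at 2.15, 1.47, 1.72, 5.51 and 1.36 TPM in ET-type and 32.2, 1.15, 121, 51.1 and 52.4 TPM in L-type livers. L-type S0355 lay below every ET-type liver and the other 4 L-type livers above them (-3.24 ± 0.87, adjusted p = 0.456; with the block 7.17e-05; 0.00655 in liver alone without S0355). That last value leaves out the only L-type liver that goes against the difference, which favours a pass. IBP4, a binding protein of insulin-like growth factors, spanned 331 to 428 TPM in ET-type and 422 to 753 TPM in L-type livers (-0.58 ± 0.20, adjusted p = 0.646). In the whole growth axis 17 of 24 genes had lower means (median -0.30, and -0.17 without S0377), where 62% of all entries did.

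**Figure D3:**
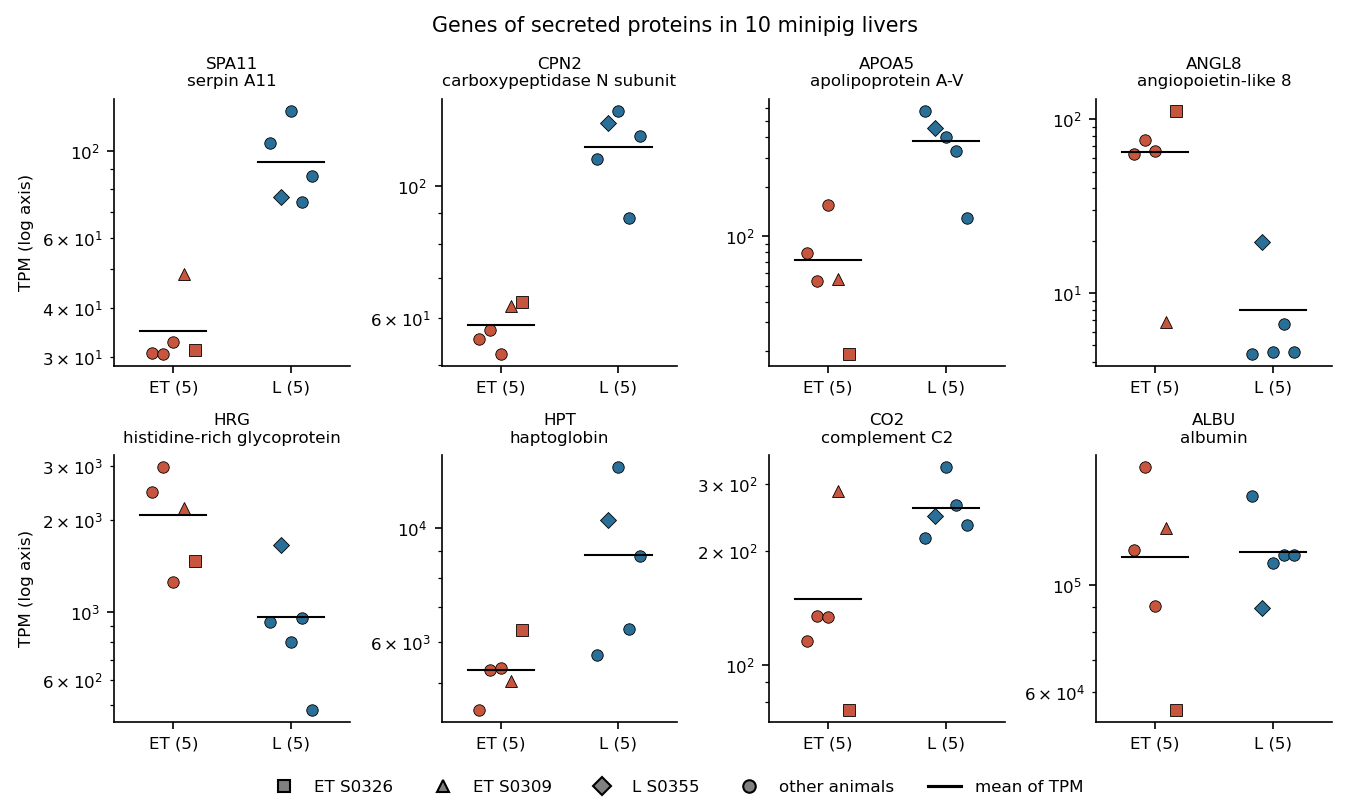
TPM on log axes of 8 genes of secreted proteins in the 5 ET-type and 5 L-type livers, with animals as points, means as lines and the same symbols for ET-type S0326, ET-type S0309 and L-type S0355. SPA11 and CPN2 separate the types, ET-type S0309 lies on the L-type side for ANGL8 and CO2, and ALBU overlaps throughout.

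Apart from these routes, the rule for naming genes picks the entries with the smallest p whose types did not overlap and differed by at least 1. Lower in every ET-type liver was PPIF, the cyclophilin of the mitochondrial permeability pore, at 25.4, 41, 33.1, 32.7 and 26.9 TPM in ET-type and 96.9, 144, 101, 60.2 and 91.8 TPM in L-type livers (-1.57 ± 0.24, adjusted p = 0.106; with the block 0.00669). NOCT, nocturnin, a rhythmic enzyme that takes a phosphate off NADPH, stood at 7.55, 12.4, 4.84, 10.1 and 14.8 TPM in ET-type and 30.6, 33.5, 30.1, 108 and 74.4 TPM in L-type livers. The L-type livers were higher and also more spread (-2.24 ± 0.40, adjusted p = 0.13; with the block 3.41e-06). PON2, an intracellular paraoxonase, had means of 10.7 ± 3.66 against 54.9 ± 24.4 TPM (-2.19 ± 0.38, adjusted p = 0.129; with the block 7.82e-05), and without L-type S0355 its adjusted p in liver alone was 0.026. SCMC2, a calcium-regulated carrier of ATP into mitochondria, had 15.9 ± 9.57 against 72.1 ± 19 TPM (-2.30 ± 0.41, adjusted p = 0.13; with the block 7.54e-05). BTG3, an anti-proliferative protein, had 31 ± 7.17 against 91.9 ± 35.6 TPM (-1.49 ± 0.28, adjusted p = 0.188; with the block 0.000992).

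At lower levels the same held for FKB1B, which binds calcium release channels (2.15 ± 0.854 against 9.18 ± 3.29 TPM; -1.66 ± 0.29, adjusted p = 0.129; with the block 1.09e-05), and for RN152, a ubiquitin ligase of the lysosome (0.362 ± 0.18 against 4.3 ± 3.04 TPM; -1.81 ± 0.34, adjusted p = 0.161; with the block 0.00929). EGFLA, pikachurin, a matrix protein known from the retina, had 0.949 ± 0.576 against 5.99 ± 2.52 TPM (-1.81 ± 0.30, adjusted p = 0.129). ICAM2, an adhesion molecule matched at only 57.7% identity, had 5.81 ± 1.89 against 25.6 ± 14.3 TPM (-1.84 ± 0.35, adjusted p = 0.198; with the block 0.00479). IF2A, the alpha subunit of an initiation factor of translation, is listed at 0 in all ET-type livers but S0276 (0, 0, 2.26, 0 and 0 TPM) and stood at 11.6, 8.18, 3.76, 3.61 and 7.33 TPM in L-type livers. That entry rests on 1 transcript (0.125 in liver alone, 0.0245 without S0276, and with the block 0.000542).

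Higher in every ET-type liver was MORC4, a nuclear ATPase of chromatin, at 47.3, 31.9, 24.8, 41.7 and 46.7 TPM in ET-type and 7.55, 8.47, 6.64, 16.1 and 8.83 TPM in L-type livers (1.93 ± 0.27, adjusted p = 0.0692; with the block 0.000249). In liver alone its adjusted p was 0.0467 without ET-type S0276 and 0.0249 without L-type S0384. OSGI1, an oxidative stress-induced growth inhibitor, stood at 369, 197, 487, 304 and 491 TPM in ET-type and 134, 165, 148, 121 and 80.9 TPM in L-type livers. Every ET-type liver exceeded the highest L-type liver (1.46 ± 0.29, adjusted p = 0.198), although of 22 oxidative stress genes 11 had higher and 11 lower means. GPX3, the secreted glutathione peroxidase, had a lower ET-type mean in the same list (56.4 to 264 TPM in ET-type and 173 to 1734 TPM in L-type livers; -2.33 ± 0.68, adjusted p = 0.518). PLAT5, an acyltransferase that acts on phospholipids, stood at 55.6, 55.4, 61.9, 33.8 and 80.5 TPM in ET-type and 13.2, 5.13, 13.2, 25.3 and 14.7 TPM in L-type livers. It was higher in every ET-type liver and the means were 4.01-fold apart (2.02 ± 0.36, adjusted p = 0.129; with the block 7.2e-10).

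Smaller levels were found in the rest of this set. DAPK1, a death-associated kinase, had 20.2 ± 4.2 against 9.58 ± 2.26 TPM (1.01 ± 0.22, adjusted p = 0.276; with the block 0.0225). P2RX4, an ATP-gated channel, had 22.6 ± 5.27 against 10.9 ± 3.36 TPM (1.01 ± 0.23, adjusted p = 0.335; with the block 0.0169). SERB, the last enzyme of serine synthesis, had 7.26 ± 3.52 against 1.91 ± 0.672 TPM (1.41 ± 0.33, adjusted p = 0.335; with the block 0.0268). HS3S6, a heparan sulfate sulfotransferase, had 14 ± 3.09 against 6.17 ± 2.55 TPM (1.11 ± 0.27, adjusted p = 0.369). CELR2, a large cadherin, had 15.3 ± 5.1 against 7.02 ± 1.87 TPM (1.01 ± 0.26, adjusted p = 0.401; with the block 0.0126), and COJA1, a chain of collagen XIX, 1.7 ± 0.59 against 0.311 ± 0.287 TPM (1.04 ± 0.24, adjusted p = 0.335; with the block 0.0127). The L-type mean of COJA1 lay below the filter of 1 TPM, which the gene met through the ET-type livers.

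Position in the lobule was read from marker lists. Of 17 periportal genes 17 had lower ET-type means (median -0.90), 8 of them at an unadjusted p below 0.05, and without S0326 these were 16 and 7. Without S0276 or S0385 5 were at that level, and the median was -0.58 without S0385. Their summed TPM ran from 5886 to 11707 in ET-type and from 6985 to 28459 in L-type livers, so the types overlapped. The list shares F16P1, ARGI1, G6PC1, SDHL, PCKGC, ASSY, CPSM, DHB13 and others with the lists above and is not a separate observation. Of 22 pericentral genes 15 had lower means (median -0.19), a share near the 62% of all entries. At an unadjusted p below 0.05, 1 was higher and 5 lower, or 3 lower without S0276 or S0385. The median was -0.42 without S0355. Beside CP2E1 and CP1A2, RHBG, an ammonium channel, spanned 0.156 to 4.82 TPM in ET-type and 1.91 to 59.9 TPM in L-type livers (-2.39 ± 0.79, adjusted p = 0.639), and HEM1, the first enzyme of haem synthesis, 98.1 to 217 TPM in ET-type and 189.7 to 968 TPM in L-type livers (-1.22 ± 0.48, adjusted p = 0.689).

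Genes of endoplasmic reticulum and heat stress had lower means in 24 of 28 (median -0.50), 7 lower and 1 higher at an unadjusted p below 0.05, and 3 lower with median-ratio scaling or without S0276, S0326, S0349 or S0355. XBP1, a transcription factor of secretory capacity, spanned 45.4 to 109.5 TPM in ET-type and 104 to 178 TPM in L-type livers (-0.87 ± 0.25, adjusted p = 0.51). PDIA4, a disulfide isomerase, spanned 94.5 to 169 TPM in ET-type and 139 to 440.1 TPM in L-type livers (-0.85 ± 0.31, adjusted p = 0.647; with the block 0.0235), and SDF2L, a chaperone partner, 29.9 to 69.7 TPM in ET-type and 39.8 to 248 TPM in L-type livers (-1.10 ± 0.43, adjusted p = 0.689). Proliferation genes had higher means in 12 of 13 (median 0.28), 3 at an unadjusted p below 0.05, and in 10 of 14 without S0326 (median 0.11).

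Markers of other liver cells were read from lists in the same way. Of 18 endothelial genes 18 had lower ET-type means (median -0.78), 3 at an unadjusted p below 0.05. Their summed TPM was 106 to 568 in ET-type and 166 to 518 in L-type livers, so the types overlapped. The count at an unadjusted p below 0.05 turned on single livers. It was 0 when any one of S0235, S0242, S0276, S0349, S0377 and S0385 was left out, 6 without S0384, 13 without S0309, and 15 with S0326 and S0309 both left out, a setting in which 940 of 10986 entries were lower at that level. The median lay between -0.99 and -0.55 with 1 animal left out. CLC4G, a lectin of sinusoidal endothelium, stood at 36, 44.3, 32, 150.1 and 110.1 TPM in ET-type and 179, 62.3, 141, 52.3 and 178 TPM in L-type livers. ET-type S0309 and S0326 lay within the L-type range and the other 3 ET-type livers below it. LYVE1, another sinusoidal receptor, was highest of all in ET-type S0309 (1.27, 1.01, 0.718, 21.9 and 0.55 TPM in ET-type livers; 1.82 to 14.9 TPM in L-type livers), and STAB1 spanned 10.7 to 33.7 TPM in ET-type and 15.6 to 50.3 TPM in L-type livers. The part of endothelial RNA in the results above was not tested.

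Macrophage genes had lower means in 18 of 24 (median -0.47), 2 lower and 1 higher at an unadjusted p below 0.05, with a summed TPM of 793 to 2588 in ET-type and 1496 to 2584 in L-type livers. The 2 lower genes became 12 without S0309, 4 without S0384, 1 without S0235, S0242, S0326 or S0355, and 0 without S0377 or S0385, and the median ran from -0.79 without S0309 to -0.29 without S0326. C163A, a haemoglobin scavenger receptor, stood at 70.3 TPM in ET-type S0309 and at 7.25 to 13.2 TPM in the other ET-type livers, against 13.8 to 63.1 TPM in L-type livers. VSIG4, a complement receptor of Kupffer cells, was 25.6 TPM in S0309 and 3.64 to 18.4 TPM in L-type livers, and CD5L spanned 279 to 701 TPM in ET-type and 499 to 917 TPM in L-type livers. MARCO, a scavenger receptor, went the other way, with 88.2, 67.4, 28.4, 25.4 and 45.8 TPM in ET-type and 3, 38.8, 5.42, 24.2 and 14.5 TPM in L-type livers. Every ET-type liver exceeded all L-type livers but S0355 (1.82 ± 0.60, adjusted p = 0.639). None of these markers was listed at 0, and their part in the results was not tested.

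The remaining cell lists were mixed. B and plasma cell genes had lower means in 18 of 20 (median -0.58), 3 at an unadjusted p below 0.05, or 5 without S0309 or S0384 and 1 without S0235, S0276, S0349, S0377 or S0385, with a summed TPM of 119 to 383.96 in ET-type and 137 to 386 in L-type livers. Stellate cell and matrix genes had lower means in 23 of 28 (median -0.23), 2 at that level, or 9 without S0309, 5 without S0326 and 1 without S0235 or S0242, with medians from -0.47 without S0309 to -0.02 without S0235. T and natural killer cell genes had lower means in 9 of 11 (median -0.29), 0 at that level, or 2 without S0309. Cholangiocyte genes had 5 higher and 5 lower means (median 0.03). Red cell genes had higher means in 4 of 5 (median 0.31), but lower means in 3 of 4 without S0326 and 4 of 5 without S0355.

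**Figure D4:**
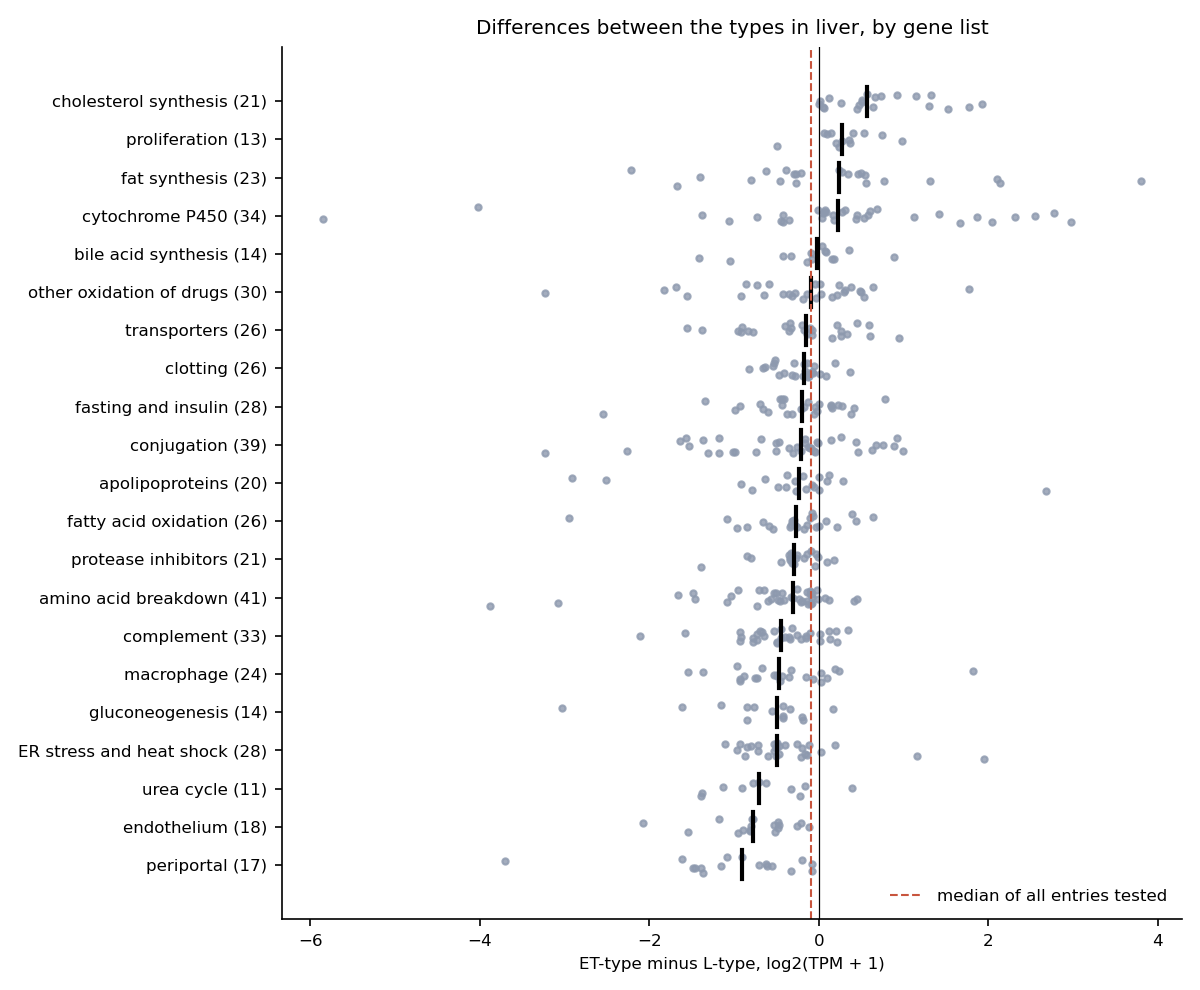
Differences between the types on log2(TPM + 1) for the measured genes of 21 lists; each point is 1 gene, black bars are list medians, the dashed line is the median of all entries tested and numbers in brackets count the genes. Cholesterol synthesis lies to the right of 0 in 21 of 21 genes, and the periportal and endothelial lists to the left in 17 of 17 and 18 of 18.

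Whether the type difference in liver differed from the mean difference in heart, kidney, lung and spleen was tested in 1 fit over the 50 libraries, blocked by animal. Of 32902 genes 283 passed (0.86%), 176 with a higher (0.535%) and 107 with a lower (0.325%) ET-type side in liver. The comparison depends on a spread shared by the tissues: 252 of the 283 varied more in liver than that shared estimate. When each animal's liver was set against its own other 4 tissues, so that no spread was pooled over tissues, 2 of the 32902 genes passed (0.00608%), both among the 283. Of the 283, 43.1% averaged under 1 TPM in the other tissues, against 9.70% of all genes tested. Of the 124 genes chosen to be named 46 passed with the block, 24 higher and 22 lower in ET-type livers relative to the other tissues, and none of the 46 in the test per animal (adjusted p between 0.175 and 0.489). Of the 46, 16 averaged under 1 TPM in the other tissues so there was little to set the liver difference against, and they are not taken as differing from the other tissues. The other 30 were 16 higher and 14 lower, and in 38 of the 46 the liver's SD lay above the pooled one.

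Among the 30, LDHB had 1151 TPM in the other tissues, where the types differed by -0.28, and its liver difference lay -2.76 ± 0.41, adjusted p = 3.22e-05 from that. For DHB13, at 1.73 TPM elsewhere, this was -3.56 ± 0.47, adjusted p = 5.36e-06, and for CP1A2, at 2.07 TPM, -4.79 ± 0.84, adjusted p = 0.000579. Both levels lie just over the cut of 1 TPM, so here too there was little to set the liver difference against. The liver's SD was 1.43 against a pooled 0.709 for DHB13 and 2.50 against 1.31 for CP1A2. In the test per animal their adjusted p was 0.318 and 0.398. PON2 averaged 40.3 TPM elsewhere and differed there by -0.05 (-2.14 ± 0.36, adjusted p = 0.000352), and FMO5 averaged 155 TPM and differed by -0.29 (-2.94 ± 0.67, adjusted p = 0.013). CRIM1, a membrane protein that binds bone morphogenetic proteins, stood at 29, 11.2, 20.0, 33.2 and 8.82 TPM in ET-type and 0.896, 2.35, 2.03, 10.6 and 3.81 TPM in L-type livers, and L-type S0384 lay above ET-type S0326. In the other tissues CRIM1 averaged 13.4 TPM and differed by -0.67, opposite to the liver (2.91 ± 0.41, adjusted p = 1.35e-05).

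The 16 genes with little expression elsewhere include SPA11, CPN2, PLAT5, ANGL8, APOA5 and CP2E1, which averaged 0.00457, 0.0112, 0.015, 0.0415, 0.525 and 0.0367 TPM outside the liver. The rule for named genes adds GLYL2 and TECTB from the same set. GLYL2, a relative of glycine acyltransferase, stood at 16.8, 7.29, 7.21, 20.1 and 5.85 TPM in ET-type and 0.488, 6.16, 0.99, 2.93 and 1.39 TPM in L-type livers. L-type S0355 reached into the ET-type range only above S0326. TECTB, beta-tectorin, a matrix protein known from the inner ear, stood at 26.6, 54.4, 23, 43.5 and 117 TPM in ET-type and 25.4, 9.57, 14.5, 12.7 and 4.76 TPM in L-type livers.

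Most of the 124 named genes did not pass the test against the other tissues, PDK4 among them. Its difference of -2.55 in liver stood beside -1.86 over the other tissues, and the 2 were not told apart (-0.69 ± 0.62, adjusted p = 0.78). For GPX3 the values were -2.33 and -1.45 (-0.88 ± 1.14, adjusted p = 0.868), and for ALBU, present elsewhere only in traces, -0.11 and -1.34 (1.22 ± 0.59, adjusted p = 0.506). HXK4 (2.46 ± 0.55, adjusted p = 0.0103), PLPL3 (3.60 ± 0.82, adjusted p = 0.0133) and THRSP (1.95 ± 0.41, adjusted p = 0.00609) passed, as did CP2CK (2.25 ± 0.43, adjusted p = 0.00202) and CP2B4 (1.40 ± 0.33, adjusted p = 0.0201). THRSP and CP2CK averaged only 1.27 and 1.42 TPM in the other tissues, just over the cut of 1 TPM. CP242, CP2CQ and CP2CI did not pass (0.128, 0.212 and 0.228) although their liver differences were among the larger ones.

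**Figure D5:**
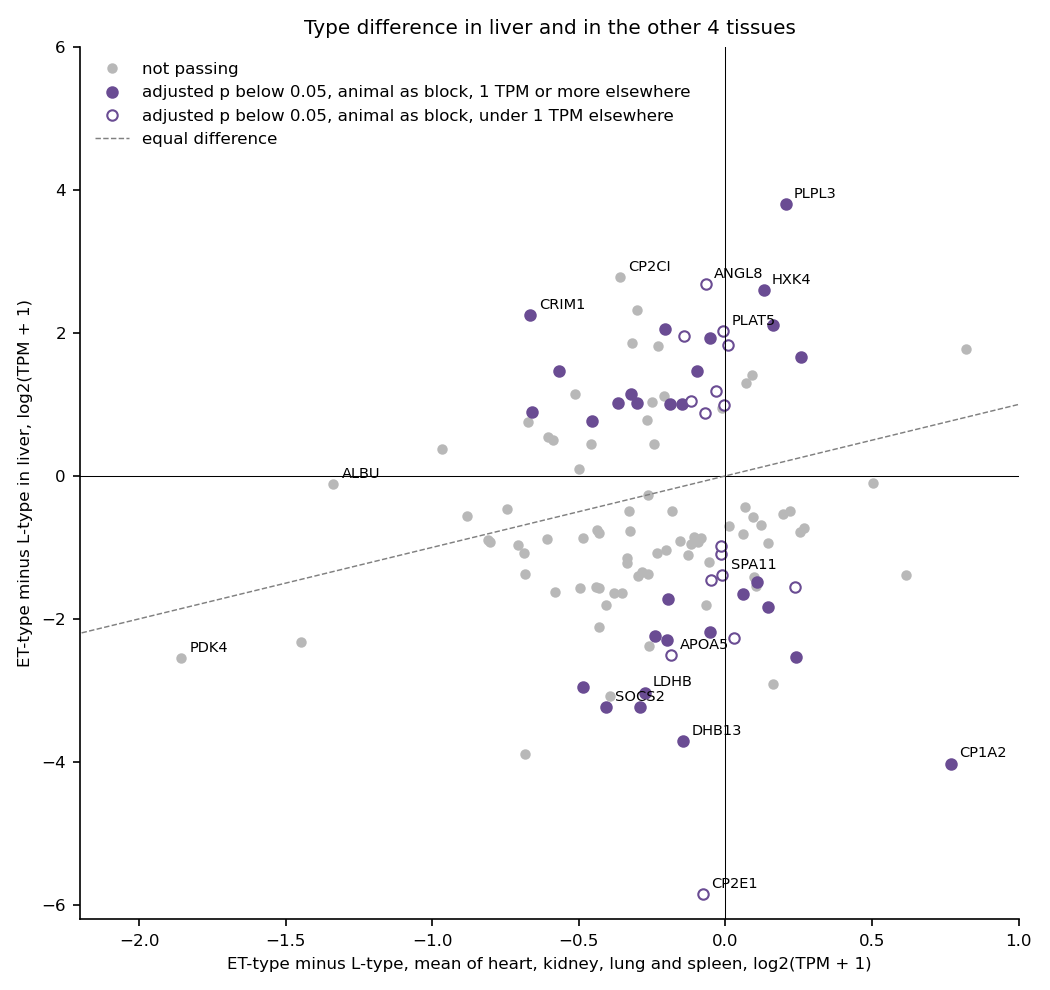
Each point is 1 of the named genes, with the type difference averaged over heart, kidney, lung and spleen on the x axis and the type difference in liver on the y axis, both as the ET-type mean less the L-type mean of log2(TPM + 1); purple points passed the test of the difference with the animal as block, open ones for genes that averaged under 1 TPM in the other tissues, and the dashed line marks equal differences. The open points, SPA11, PLAT5 and ANGL8 among them, lie near 0 on the x axis, where there was little expression to differ, while PDK4 lies near the dashed line.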

How the data were processed

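The authors deposited TPM for 57085 assembled transcripts, with each of the 50 library columns summing to 1000000. Per the submitters' processing notes, Trimmomatic 0.36, Salmon 1.10.0 and the build Sscrofa11.1 were used. No read counts were used here, so the depth per library is unknown, no counting interval is given and no count model was run. Transcripts were named by the best Swiss-Prot match in the deposited annotation, which 63.9% of them had, and TPM was summed per entry name, giving 14532 entries; the rest were kept singly, for 35133 genes. Summing pools paralogs, and a value may hold reads of a close relative.

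Limma 3.58.1 (trend, empirical Bayes, R 4.3.3) was run on log2(TPM + 1) for genes averaging 1 TPM or more over the 10 livers; that scale understates changes of low genes. A gene could meet the filter on mean TPM through the livers of 1 type, with the mean of the other type below 1 TPM. COJA1, RN152 and EGFLA are among such genes. Adjusted p-values are Benjamini-Hochberg over all genes tested. Folds are ratios of mean TPM. The comparison with other tissues used all 50 libraries, 10 groups and the animal as replicate block (duplicateCorrelation, 0.114); the same animal's 5 tissues carry its number in the labels, which is where the pairing comes from. Both fits were also run on simulated data with independent noise. For the fit over all tissues, each simulated gene had the same spread in every tissue and no animal effect. That run therefore cannot show how a larger spread in liver affects the fit. Animals of a type are separate in the labels, which do not say whether they are related.

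The members, the 45 lists and the rule for naming genes were chosen with earlier results of these data known, and 942 of 1160 listed symbols matched, with 62 entries added by protein name. Named are up to 15 genes in each direction with the smallest p among entries that did not overlap and differed by at least 1; per list described, up to the 4 members with the smallest p and the 2 highest in mean TPM; cell type markers; and the 5 lowest p per direction against the other tissues. Of the first and last sets, 5 genes of uncertain role are left out. A further gene picked by that rule is not reported here. The settings varied were the pseudocount (0.1), the filter (none, or 5 TPM on average), the scaling (by median ratios, or by quantiles), the genes (without mitochondrial ones and the 10 highest), the empirical Bayes step (robust), the unit (single transcripts), the animals (each left out) and the block. A test per animal and leaving out S0326 and S0309 together were chosen after seeing the data. Python 3.11.15, pandas 2.3.3, numpy 2.4.6, data.table version 1.17.8 and matplotlib 3.10.9 were used for tables and figures.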

Additional observations from a re-analysis of the deposited data

Results flagged for a closer look

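A liver far from the other 4 of its type was looked for in 248 groups of named genes and types. There were 19 such libraries; chance alone flags about 1 in 20 groups. They fell on ET-type S0309 in 6 groups, S0276 in 4, S0242 and S0326 in 2 each and S0235 in 1, and on L-type S0349 in 3 and S0355 in 1. In ET-type S0309 they were ANGL8 at 6.80, SPA11 at 48.8, SOCS2 at 5.51, C163A at 70.3, LYVE1 at 21.9 and P2RX4 at 31.8 TPM. For ANGL8 and SPA11 that liver lay toward the L-type values, and for P2RX4 away from them. In ET-type S0276 they were THRSP at 80.3, CP2B4 at 437, APOA4 at 508 and IF2A at 2.26 TPM, the last beside 4 livers listed at 0. ET-type S0242 stood apart in THIM at 66.4 and ARGI1 at 785 TPM, S0326 in ECHA at 45.8 and PON2 at 4.66 TPM, and S0235 in COJA1 at 2.73 TPM. L-type S0349 stood apart in CYB5 at 1476, CP8B1 at 14.4 and TTHY at 2895 TPM, and L-type S0355 in ANGL8 at 19.7 TPM.

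The type difference in liver differed from the mean difference in the other 4 tissues for 46 named genes, by limma on all 50 libraries with the animal as block. The values below are the liver difference minus that mean, on the log2 scale. Toward the ET-type side these were PLPL3 (3.60), CRIM1 (2.91), ANGL8 (2.75), HXK4 (2.46), CP2CK (2.25), GLYL2 (2.10), OSGI1 (2.03), PLAT5 (2.03), MORC4 (1.98), THRSP (1.95), TECTB (1.82), ACSL4 (1.56), AMACR (1.55), FDFT (1.47), CP2B4 (1.40), CELR2 (1.38), AHR (1.32), 6PGD (1.22), THBG (1.21), DAPK1 (1.195), COJA1 (1.16), P2RX4 (1.16), UD2A1 (1.0) and AFAM (0.95). Toward the L-type side they were CP2E1 (-5.77), CP1A2 (-4.79), DHB13 (-3.56), FMO5 (-2.94), SOCS2 (-2.83), IF2A (-2.77), LDHB (-2.76), THIM (-2.46), APOA5 (-2.32), NNMT (-2.29), PON2 (-2.14), SCMC2 (-2.10), NOCT (-2.0), ICAM2 (-1.98), PON3 (-1.79), FKB1B (-1.72), BTG3 (-1.59), ABHD5 (-1.53), SDHL (-1.41), SPA11 (-1.38), ABCG8 (-1.08) and CPN2 (-0.96). None of the 46 passed in the test per animal, which pools no spread over tissues. Of the 46, 16 averaged under 1 TPM outside the liver (SPA11, PLAT5, CPN2, ANGL8, GLYL2, APOA5, CP2E1, TECTB, ABCG8, NNMT, UD2A1, PON3, THBG, COJA1, SDHL and AFAM). Their values are close to the liver difference alone and are not taken as a contrast between tissues. THRSP, CP2CK, DHB13, CELR2 and CP1A2 lay little above that cut, at 1.27, 1.42, 1.73, 1.86 and 2.07 TPM. In 38 of the 46 the liver varied more than the pooled estimate.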

How the results depend on the processing

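The count of 2 genes passing in liver was 1 with a mean of at least 5 TPM, 4 over single transcripts and 2 to 15 with 1 animal left out (15 without L-type S0355, 9 without ET-type S0309, 5 without ET-type S0276). It was 322 of 32902 genes with all libraries and the animal as replicate block, in which 54 of the 124 named genes passed. That block joins tissues of an animal, not the types. Entries above in every ET-type liver, 50 as reported, were 89 with median-ratio scaling, 81 with mitochondrial and the 10 highest genes left out, 59 to 125 with 1 animal left out and 199 without S0326 and S0309. Entries below in every ET-type liver, 97 as reported, were 60 with median-ratio scaling, 111 to 519 with 1 animal left out and 817 without S0326 and S0309. Both counts rise by chance alone when fewer animals are compared, and that part was not estimated. The median of fat synthesis genes was -0.18 to 0.40 with 1 animal left out and -0.0764 without S0326 and S0309. Medians near 0 changed sign in bile acid synthesis, plasma carriers and oxidative stress, and without S0326 those of glycolysis and acute phase genes came to 0.01 and 0.00; cholangiocyte genes also changed sign, as did red cell genes without S0326 or S0355 and T and natural killer cell genes under the stricter filter (5 TPM); the other lists described kept their sign in all settings. The genes differing from the other tissues, 283 as reported, were 172 at a pseudocount of 0.1, 162 to 684 with 1 animal left out (684 without ET-type S0309; 181, 162 and 171 without L-type S0349, S0377 and S0385) and 2 per animal, paired, with no pooled spread. Of 2337 recomputed gene values, 2270 kept their direction and side of the threshold, 64 came to pass, 54 of them under the block, and 3 reversed. ALBU ran from -0.29 to 0.12 with 1 animal left out, and was 0.10 without S0326 and S0309; APOH ran from -0.00991 to 0.17. The cause of these shifts was not tested. No read depth was given, so precision for genes near 1 TPM is unknown.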

Other observations

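Transcripts without a protein match were not described above, apart from those that passed in liver. Of 4149 such transcripts tested that came from ET-type assemblies, 13 lay higher (0.313%) and 19 lower (0.458%) in every ET-type liver than in every L-type liver. Of 6208 from L-type assemblies, 8 lay higher (0.129%) and 45 lower (0.725%), and both transcripts that passed are of this kind. In both sets more transcripts lay lower than higher, the difference between the sets was not tested, and the part of the assembly in these counts was not tested.

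Among entries with an unadjusted p below 0.05, 728 in all, the ET-type animal nearest the L-type side was S0309 in 39.3%, S0242 in 22.5%, S0276 in 16.6%, S0326 in 14.6% and S0235 in 7.01%. The L-type animal nearest the ET-type side was S0355 in 33.1%, S0384 in 27.7%, S0385 in 15.2%, S0377 in 13.5% and S0349 in 10.4%.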
